A study of Mus musculus and Homo sapiens with 12 samples.

Results

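The vascular endothelial growth factor (VEGF) genes described here are the ligands VEGFA, VEGFB, VEGFC, VEGFD and PGF, the receptors FLT1, KDR and FLT4, and the angiopoietin ANGPT2. They were picked by gene symbol from 2 tables that compare liver-selected pancreatic cancer lines with their parental lines. All 9 were among the 23201 genes of the mouse KPC table. Among the 18190 genes of the human PANC1 table, 8 of the members were found, and VEGFD was not analysed for PANC1.

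VEGF ligands are secreted dimers that bind receptor tyrosine kinases, best known on blood and lymphatic endothelium. VEGFA signals mainly through KDR (VEGFR2) in blood vessels, while FLT1 (VEGFR1) binds VEGFA, VEGFB and PGF and also exists as a soluble decoy. VEGFC and VEGFD act on FLT4 (VEGFR3), the main lymphatic receptor, and ANGPT2 modulates the TIE2 receptor TEK. Tumour cells are usually counted as a source of the ligands, and the receptors are mainly, though not always, endothelial.

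RNA was sequenced from 12 samples, 3 biological replicates in each of 4 groups. KPC LM2 is the mouse KPC line after 2 generations of selection in the liver, and KPC is its parent. PANC1 LM3 is the human PANC1 line after 3 generations of the same procedure, and PANC1 is its parent. The labels give the genotype of every group as WT, and tumours were taken from the liver on day 21 after an intrasplenic injection of 500000 cells on day 1. The protocols say that RNA came from these tumours ex vivo, while the sample titles name cells of each line. Each selected line is 1 derived line, and neither the host strain nor whether replicates came from separate animals is given in the labels.

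Each model came as the authors' comparison of its 2 groups, with no value per library, so values per sample, the spread between samples and the sequencing depth are unknown. The tables do not name the numerator of the fold change. Log2 fold changes therefore keep their listed sign here, with no statement on whether the selected or the parental line was higher. The value after ± is the standard error (SE) in the table, on the log2 scale, and a mean count is the listed mean over all libraries of a model after scaling for library size. A gene is called when its adjusted p in the table is under 0.05. The most abundant listed carcinoma keratins were KRT8 in PANC1, at a mean count of 49702, and Krt18 in KPC, at 28158, in the authors' deposited tables. KRT7 in PANC1 was at only 45.4. The mean and fold of KRT8 imply about 94761 normalised counts in 1 PANC1 group and 4644 in the other. Of 8 listed hepatocyte markers in KPC, the most abundant was Ttr at 26.7, and of 3 in PANC1 it was CYP2E1 at 7.56, both in the authors' deposited tables. The PANC1 markers are human genes and are no measure of RNA of a host of another species. Whether host reads aligned to them was not tested.

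In KPC the receptors Flt1 and Flt4 were called with opposite signs, while the 5 ligands and Angpt2 were not called. The unadjusted Wald p was under 0.05 for 4 members (Flt1, Flt4, Kdr and Vegfc). The 2 calls among 9 members compare with 10.4% of all 20050 genes tested. One call was positive, against 5.77% of all genes, and 1 was negative, against 4.60%. Positive calls made up 55.7% of all KPC calls as listed and 23.5% after recentring on the genes with a mean count of 64 or more. The median log2 fold change of the 9 was 0.12, and that of all tested genes was -0.08.

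Relative to exon length, Vegfa was the most abundant member in the KPC libraries, at 213 mean normalised counts per kilobase of exon. It was followed by Vegfb at 143, Flt1 at 92.7, Angpt2 at 49.1, Vegfc at 44.0 and Flt4 at 31.1 mean normalised counts per kilobase. Pgf at 9.06, Vegfd at 7.76 and Kdr at 3.07 per kilobase were the least abundant. Over both groups pooled, Flt1 thus stood below Vegfa and Vegfb and above the other ligands, and Kdr, the other VEGFA receptor, was lowest. That place of Flt1 need not hold within either group, since its implied means were about 2134 and 369 normalised counts. The order is a description, because the spread of these levels between libraries is not listed and neighbouring positions cannot be told apart by an error. Lengths are the merged exons of a mouse annotation on another build than the authors' and were not used for the human table.

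**Figure D1:**
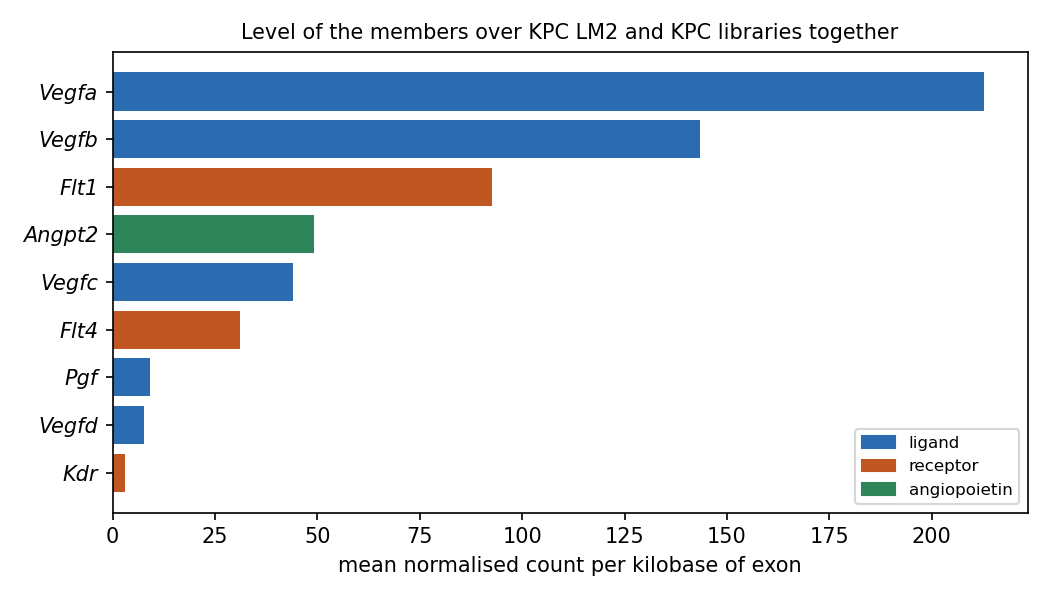
Mean normalised count per kilobase of merged exon (x axis, from 0) for the 9 members over the KPC LM2 and KPC libraries together; bars are coloured by role, and no error is available. Vegfa reaches 213, Flt1 follows Vegfb at 92.7, and Kdr is lowest at 3.07.

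Among the KPC ligands, Vegfa, the main angiogenic ligand, had a mean count of 912 and a log2 fold change of -0.09 ± 0.20 in the authors' deposited table. Its 95% interval runs from -0.49 to 0.30, so a difference of more than about 1.40-fold in either sign lies outside it. Vegfb was listed at 0.12 ± 0.22 with a mean count of 230 in the authors' deposited table, and its sign turned to -0.10 after recentring. Vegfc, the lymphatic ligand, was at 0.71 ± 0.30 with a mean count of 108 in the authors' deposited table. Its interval of 0.13 to 1.30 leaves out 0, but the adjusted p of the Wald test was 0.099, and at that SE a call needed an absolute value of 0.83.

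The 2 scarcer ligands of KPC were measured less precisely. Vegfd, the second lymphatic ligand, had a mean count of only 18.7 and was listed at 0.87 ± 0.54 (adjusted p = 0.28 by the Wald test) in the authors' deposited table. Pgf, placenta growth factor, which binds Flt1 alone among the receptors, had a mean count of 26.3 and was at -1.31 ± 0.70 (adjusted p = 0.20 by the Wald test) in the authors' deposited table. A call at these SEs needed an absolute log2 fold change of 1.52 for Vegfd and 1.95 for Pgf. Smaller differences in these ligands were not detectable here.

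Of the KPC receptors, Flt1 had the largest difference of all members. It was listed at 2.53 ± 0.22 with a mean count of 1252 and a Wald test adjusted p of 5.97e-28 in the authors' deposited table. This is a 5.79-fold difference between the groups, with a 95% interval of 4.31 to 7.77. With 3 libraries of equal weight per group, that mean and fold imply about 2134 normalised counts in one group and 369 in the other. Flt4 moved the other way, at -1.69 ± 0.24 with a mean count of 256 and a Wald test adjusted p of 1.1e-09 in the authors' deposited table. The fold is 3.22 with an interval of 2.32 to 4.48, and it implies about 390 and 121 normalised counts. The group with more Flt1 RNA was thus the one with less Flt4 RNA, whichever of KPC LM2 and KPC it was. The 2 fold changes lie 4.22 apart on the log2 scale, with an SE of 0.33 if their errors are independent, and this gap does not depend on the scaling of libraries.

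Kdr, the receptor through which VEGFA drives vessel growth, was the scarcest member per kilobase in KPC. It had a mean count of 27.7 and a log2 fold change of -1.32 ± 0.53 (adjusted p = 0.082 by the Wald test) in the authors' deposited table. Its value lay on the same side as that of Flt4, and the difference between Kdr and Flt4 was 0.37 ± 0.58. After recentring on genes with a mean count of 64 or more, a shift of 0.22, Kdr was at -1.54 and called, with an adjusted p of 0.038. After subtraction of the level trend it was at -1.11 and was not called.

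The counts are per gene, so full-length and soluble Flt1 transcripts cannot be told apart. The GENCODE M21 mouse annotation holds Flt1 transcripts of 30, 13 and 12 exons, and others of 3 exons or fewer. No exon of a KPC member overlapped an exon of another gene there on either strand. Fewer cells of a type and less RNA per cell cannot be told apart in these bulk samples either.

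To show the sequence from which the strongest call is transcribed beside that of the scarcest receptor, the 250 bases before the RefSeq starts of Flt1 and Kdr are given 5′ to 3′. Flt1 lies at chr5:147726012-147726261 and Kdr at chr5:75978456-75978705, both on the minus strand of GRCm38.p6, which is not the build of the counts. Capitals mark TATAAA and TGACGTCA, the TATA box and the cyclic AMP response element, searched on both strands.
Flt1: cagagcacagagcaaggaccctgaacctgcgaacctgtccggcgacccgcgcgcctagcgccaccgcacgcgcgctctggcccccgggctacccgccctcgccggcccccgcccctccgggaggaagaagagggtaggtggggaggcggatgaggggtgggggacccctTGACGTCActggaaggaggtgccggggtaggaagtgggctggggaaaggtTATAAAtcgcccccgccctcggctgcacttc
Kdr: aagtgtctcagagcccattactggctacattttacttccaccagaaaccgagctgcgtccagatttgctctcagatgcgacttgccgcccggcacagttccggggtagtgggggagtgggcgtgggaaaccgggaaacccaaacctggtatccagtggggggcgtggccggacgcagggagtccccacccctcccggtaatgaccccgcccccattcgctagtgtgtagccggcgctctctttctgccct
The Flt1 window holds TATAAA from 31 to 26 bases before the start and TGACGTCA from 81 to 74 bases before it, and the Kdr window holds neither. Among the other matched members, the uncalled Vegfd also had TATAAA, from 73 to 68 bases before its start. For Flt4, the other called member, only GC boxes were found. The letters ACGTG, also searched, were in neither printed window and in 16.6% of all windows. The last 3 bases of the Kdr window lie in an exon of Kdr in GENCODE M21, where the gene starts slightly earlier, and none of the Flt1 window does. Among all 32851 mouse windows of this length, 12.4% hold TATAAA and 1.55% hold TGACGTCA on either strand. The ETS-type letters AGGAAG occur at 2 places in the Flt1 window, at 0 in that of Kdr, and in 29.5% of all windows. GC boxes, GGGCGG, were found at 3 places for Flt1 and 2 for Kdr, and in 32.7% of all windows. The motifs do not overlap, they were chosen after the sequences were read, and a match is not a shown site of binding. RefSeq windows were matched for 8 of the 9 members, and Angpt2 was unmatched.

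Angpt2, the TIE2 ligand made by activated endothelium, was at 0.13 ± 0.24 with a mean count of 181 in the authors' deposited table for KPC. Its interval of -0.34 to 0.60 covers 0, and the sign turned to -0.09 after recentring. Of the 4 other angiopoietin and TIE genes in KPC (Angpt1, Angpt4, Tek and Tie1) none was called by the Wald test, and 0 had an unadjusted p under 0.05. Their highest mean normalised count was 18.5, for Tek, in the authors' deposited table. Angpt2 was therefore measured well above its receptor in these libraries, at 49.1 counts per kilobase of exon against 3.92 for Tek.

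Endothelial marker RNA was scarce in the KPC libraries. Of 15 endothelial markers 14 were listed in KPC, with mean normalised counts from 1.45 to 30.7, and 0 of 13 tested were called by the Wald test, while 2 had an unadjusted p under 0.05. The calls were 2 negative after recentring and 1 positive after subtraction of the level trend. The authors' deposited table gave Pecam1 a mean count of 11.3, Cdh5 14.3 and the most abundant marker, Vwf, 30.7. All 14 together summed to 170 mean normalised counts, which are not scaled for exon length. Per kilobase of exon, single markers ran from 0.94 (Tie1) to 8.13 (Egfl7), against 92.7 for Flt1 and 31.1 for Flt4. The sum of the markers was not compared with either receptor per kilobase. Of 10 liver sinusoidal and lymphatic endothelial markers, all with mean counts of 28.5 or less, 0 were called positive and 1 negative. The gene called was the lymphatic regulator Prox1, at -2.17 ± 0.74 with a mean count of 15.6 in the authors' deposited table. Levels of these markers in each group are not listed. Over all genes tested in KPC, 10.4% were called, 5.77% as positive and 4.60% as negative. Pericyte, leukocyte and hepatocyte markers in KPC were likewise low, with highest mean counts of 41.4 (Acta2), 33.1 (Cd68) and 26.7 (Ttr) in the authors' deposited table. The calls were 1 negative of 9 pericyte and fibroblast markers (Col1a1, -1.84 ± 0.63), 1 negative of 7 leukocyte markers (Adgre1, -2.88 ± 0.75) and 0 of 6 hepatocyte markers, of which 3 had an unadjusted Wald p under 0.05, by the authors' deposited table. The calls of Prox1, Col1a1 and Adgre1 were lost after subtraction of the level trend, with adjusted p-values of 0.43, 0.26 and 0.14. Of 8 carcinoma epithelial markers Krt7 was positive at 1.18 ± 0.18 and Epcam negative at -1.14 ± 0.28 in the authors' deposited table.

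**Figure D2:**
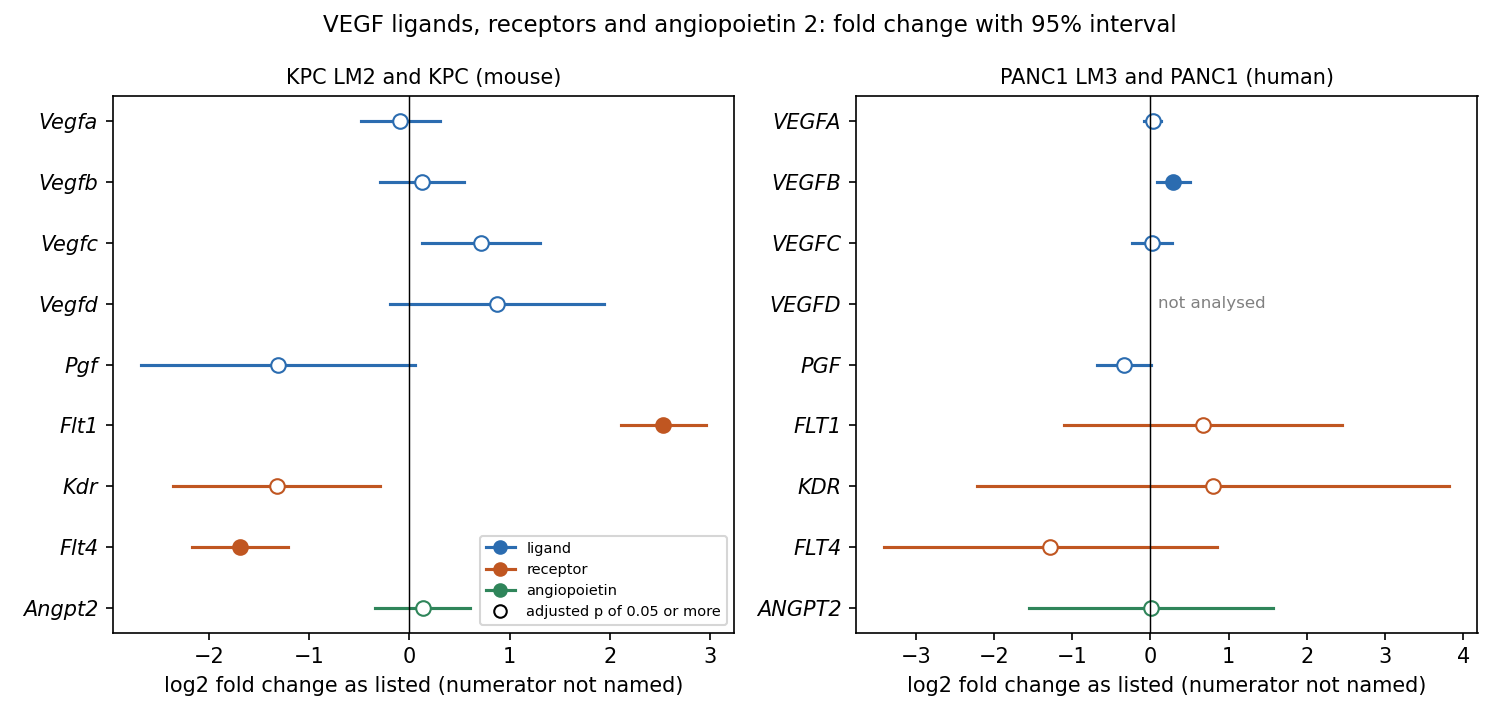
Log2 fold change as listed (x axis, numerator not named) with 95% intervals (lines) for each member in the KPC and PANC1 tables; filled points have an adjusted p under 0.05, and colours give the role. In KPC, Flt1 at 2.53 and Flt4 at -1.69 stand on opposite sides, and in PANC1 only VEGFB at 0.29 is filled.

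In PANC1 the ligands had mean counts of 111 to 2738 and log2 fold changes from -0.34 to 0.29, and the receptors and ANGPT2 had mean counts of 5.23 or less. Of 8 members 1 was called, VEGFB, while 52.5% of the 17838 genes tested were called. As positive calls, as for VEGFB, 26.0% of all tested genes were listed, and as negative calls 26.5%. The median log2 fold change of the 8 was 0.02, and that of all tested genes -0.002. PANC1 values had smaller errors than KPC values. The median SE of genes with a mean count of 64 or more was 0.09 in PANC1 and 0.24 in KPC.

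VEGFA was measured more precisely than any other member, at 0.03 ± 0.06 with a mean count of 2738 in the authors' deposited table for PANC1. Its 95% interval runs from -0.08 to 0.14, which leaves a difference of at most 1.10-fold in either sign. After subtraction of the trend over expression level it was at 0.14 with an adjusted p of 0.031, so this call depends on that choice. VEGFB, a ligand of FLT1 linked to fatty acid uptake by endothelium, was at 0.29 ± 0.11 with a mean count of 347 and a Wald test adjusted p of 0.015 in the authors' deposited table. That is 1.22-fold, with an interval of 1.06 to 1.41, and it was no longer called at an adjusted p of 0.01. VEGFC was at 0.02 ± 0.13 with a mean count of 230 in the authors' deposited table, and its interval ends at -0.23 and 0.27. PGF was at -0.34 ± 0.17 with a mean count of 111 in the authors' deposited table, with a Wald test adjusted p of 0.090. After subtraction of the level trend PGF was at -0.39 with an adjusted p of 0.048.

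The receptor genes of PANC1 gave too few reads for a comparison. PANC1 reads were counted on human genes, so these counts and the marker counts are no measure of RNA of a host of another species. Whether some host reads were counted on human genes was not tested. In the authors' deposited table FLT1 had a mean count of 3.90, KDR 1.51 and FLT4 3.03, and ANGPT2 had 5.23. Their log2 fold changes in the authors' deposited table were 0.67 ± 0.91 for FLT1, 0.80 ± 1.54 for KDR, -1.28 ± 1.08 for FLT4 and 0.01 ± 0.79 for ANGPT2. A call at these SEs needed an absolute log2 value from 1.77 for ANGPT2 to 3.42 for KDR. The mouse Flt1 difference, 2.53 on the log2 scale, is above the 2.01 needed at the SE listed for FLT1. That SE goes with the listed FLT1 difference at a mean count of 3.90 and need not hold at a larger one. The sign listed for FLT1 and for FLT4 was the same as in KPC. The numerators are not named, so an equal sign need not mean the same direction between selected and parental lines. Both PANC1 intervals also cover 0, and the models were normalised separately. Of 15 endothelial markers 9 were listed in PANC1. The calls among 8 tested were 4 positive and 1 negative, against 26.0% and 26.5% of all genes tested. The most abundant, EGFL7, had a mean count of 370 and was at -0.18 ± 0.22 in the authors' deposited table, while the negative call was CDH5, with a mean count of 9.89, at -4.09 ± 0.95. The positive calls in the authors' deposited table were ENG at 0.74 ± 0.11 with a mean count of 274, ESAM at 1.49 ± 0.32, SOX17 at 2.27 ± 0.73 and ROBO4 at 2.83 ± 1.13. PECAM1 and VWF were not among the 9. None of 4 sinusoidal and lymphatic markers, 2 other angiopoietin and TIE genes and 3 hepatocyte markers tested was called by the Wald test, and 1 of these 9, ANGPT4, had an unadjusted p under 0.05. Pericyte and fibroblast markers had 1 positive and 1 negative call of 8 (COL3A1 at 1.05 ± 0.11, CSPG4 at -1.23 ± 0.12), and leukocyte markers 1 and 1 of 4 (CD68 at 1.91 ± 0.07, ITGAM at -0.92 ± 0.34), in the authors' deposited table. Epithelial markers had 2 positive and 5 negative calls of 8. Among the negative ones in the authors' deposited table were KRT8 at -4.35 ± 0.06, CDH1 at -3.92 ± 0.10, KRT19 at -3.79 ± 0.05 and KRT18 at -3.35 ± 0.05. The positive calls were EPCAM at 0.97 ± 0.10 and SOX9 at 0.70 ± 0.07 in the authors' deposited table.

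**Figure D3:**
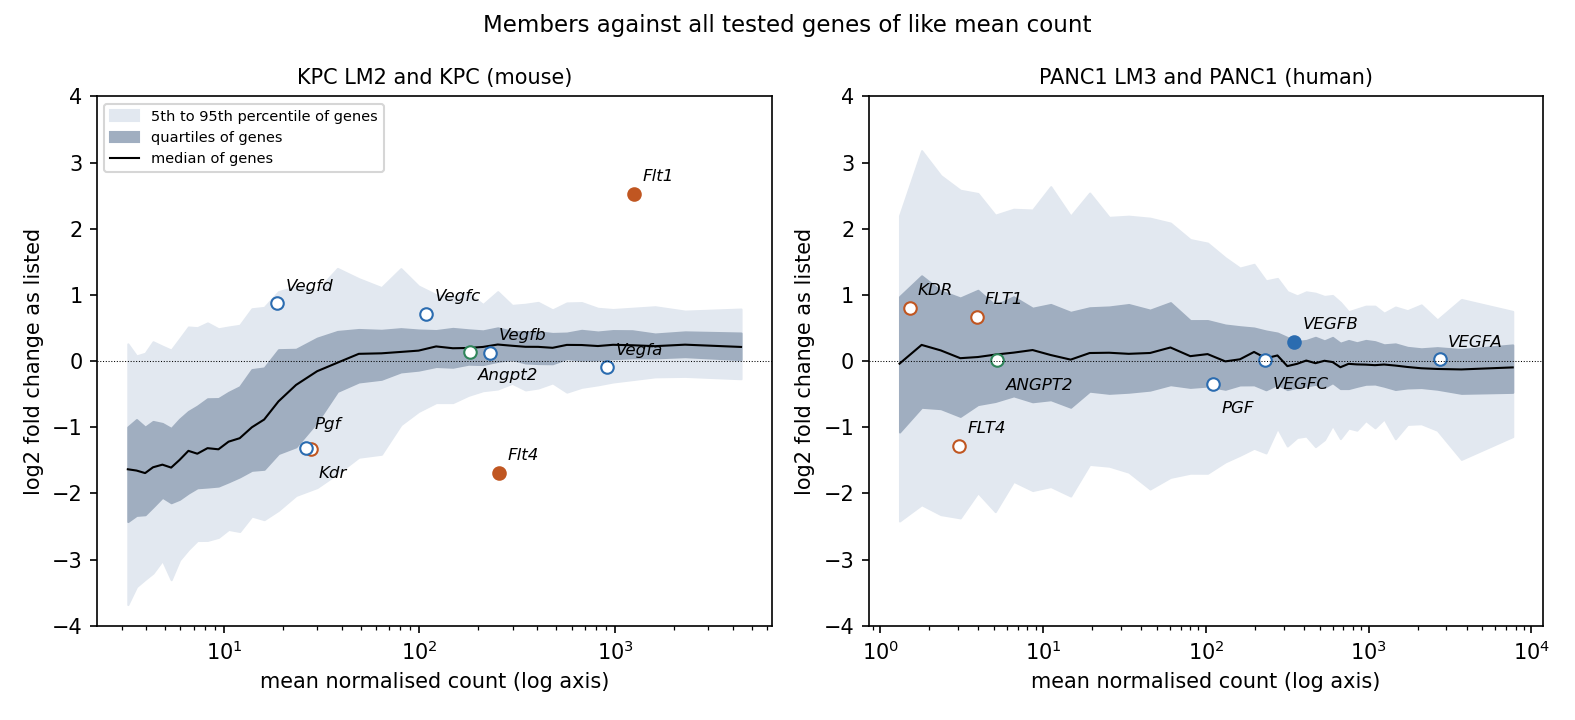
Log2 fold change as listed (y axis) against mean normalised count (x axis, log scale) for each member; the black line is the median of all tested genes in 40 ranges of level, and the bands are their quartiles and the 5th to 95th percentiles. Flt1 and Flt4 lie outside the wider band in KPC, and the 4 PANC1 members under 16 counts lie inside it.

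The fold change of a typical KPC gene varied with its level, which bears on the scarce members. Genes with a mean normalised count under 16 had a median log2 fold change of -1.45 in KPC, and those at 64 or more had 0.22. At the level of Kdr the running median was -0.21, at that of Pgf -0.25 and at that of Vegfd -0.60. With that median subtracted, Kdr was at -1.11, Pgf at -1.07 and Vegfd at 1.47 on the log2 scale, none of them called. Flt1 was then at 2.29 and Flt4 at -1.93, and both remained called. In PANC1 the medians were 0.10 under 16 counts and -0.03 at 64 or more.

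The neuropilins, co-receptors that bind VEGF ligands and class 3 semaphorins, had calls in both models, Nrp2 in KPC and both genes in PANC1. In KPC, Nrp2, the partner of Flt4 in lymphatic endothelium, was at 2.11 ± 0.19 with a mean count of 1183 and a Wald test adjusted p of 1.86e-26 in the authors' deposited table. It stood on the side of Flt1, from which it differed by -0.42 ± 0.29 on the log2 scale, and lay 3.80 ± 0.31 above Flt4. Mean and fold imply about 1921 normalised counts in one group and 445 in the other. Nrp1 in KPC was at -0.14 ± 0.22 with a mean count of 518 in the authors' deposited table and was not called. In PANC1 both neuropilins were negative in the authors' deposited table, NRP2 at -1.12 ± 0.15 with a mean count of 165 and NRP1 at -0.22 ± 0.06 with 5616. The call of NRP1 was lost after subtraction of the level trend, with an adjusted p of 0.15. The sign of NRP2 differed between the tables, and the difference between models was not tested, since the numerators are not named.

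Genes that process VEGFC and VEGFD were called in both directions. Of 6 tested in KPC, the calls were 1 positive and 2 negative, against 10.4% of all genes called. The authors' deposited table listed Ccbe1, the cofactor of VEGFC cleavage, at -2.44 ± 0.80 and the proprotein convertase gene Pcsk5 at -2.27 ± 0.67. The convertase gene Pcsk7 was at 0.66 ± 0.22 in the authors' deposited table and was not called after recentring, with an adjusted p of 0.17. Of 6 tested in PANC1, the calls were 1 positive and 4 negative, against 52.5% of all genes. ADAMTS3, the protease that cleaves VEGFC, was at 1.02 ± 0.34, as the authors' deposited table lists it, with FURIN at -0.42 ± 0.08, PCSK7 at -0.50 ± 0.10 and ADAMTS14 at -1.87 ± 0.52. PCSK5 was at -3.14 ± 1.26 with a mean count of only 3.63 in the authors' deposited table for PANC1.

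Of the hypoxia-induced genes 13 of 20 were called in PANC1, and of the regulators of VEGFA 7 of 12, against 52.5% of all genes. Of 20 hypoxia-induced genes tested in PANC1, the calls were 11 positive and 2 negative, with a median log2 fold change of 0.49. Examples in the authors' deposited table were NDRG1 at 2.64 ± 0.18, the secreted glycoprotein gene STC2 at 1.47 ± 0.05, the prolyl hydroxylase gene P4HA2 at 1.26 ± 0.08 and the glucose transporter gene SLC2A1 at 1.05 ± 0.09. The vasodilator peptide gene ADM was at 0.91 ± 0.05 and the mitophagy receptor gene BNIP3L at 0.90 ± 0.08 in the authors' deposited table. Of 12 regulators, 3 were positive and 4 negative. The authors' deposited table listed the hypoxia-inducible factor genes EPAS1 at 0.96 ± 0.06 and HIF1A at 0.40 ± 0.07, and their oxygen sensor EGLN3, itself induced by hypoxia, at -3.29 ± 0.44. The mRNA decay factor genes ZFP36 and ZFP36L1 lay on opposite sides, at 1.11 ± 0.06 and -0.98 ± 0.14 in the authors' deposited table, and the HIF inhibitor gene HIF1AN was at -0.34 ± 0.06. In KPC the counts were 1 positive and 0 negative of 18 hypoxia-induced genes, and 1 and 0 of 12 regulators, against 5.77% and 4.60% of all genes. These were P4ha1 at 0.74 ± 0.24, lost after recentring with an adjusted p of 0.13, and Egln3 at 1.03 ± 0.25, both as given in the authors' deposited table.

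Class 3 semaphorins, some of which compete with VEGF for neuropilins, and the genes listed with them as endogenous inhibitors had more negative than positive calls in PANC1. Of 14 tested, 2 had positive and 8 negative calls, with a median of -1.21, against 26.0% positive and 26.5% negative over all genes. SEMA3F, a ligand of NRP2 with anti-angiogenic action, was at -3.14 ± 0.09 with a mean count of 895 in the authors' deposited table. SEMA3D was at -3.28 ± 0.20, SEMA3E at -1.96 ± 0.14, SEMA3C at -1.83 ± 0.06 and SEMA3A at -1.27 ± 0.07 in the authors' deposited table. The thrombospondin gene THBS1, an angiogenesis inhibitor, was at -2.08 ± 0.09 in the authors' deposited table. In KPC 2 of 14 were positive and 1 negative, against 10.4% of all genes called. The authors' deposited table listed Sema3b at 1.31 ± 0.28, Sema3a at -0.94 ± 0.30 and the abundant Sema3c at 0.83 ± 0.28, and Sema3c was not called after recentring (adjusted p = 0.13).

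Genes that relay VEGF receptor signals were called in KPC for 2 positive and 1 negative of 26 tested, a share near the 10.4% of all genes. The authors' deposited table gave the GTPase gene Rac1 at 0.96 ± 0.25, the kinase gene Prkca at 0.71 ± 0.20 and the phospholipase gene Plcg2 at -1.93 ± 0.54. Prkca was not called after recentring, with an adjusted p of 0.084, and after subtraction of the level trend Rac1 was not, with 0.061. In PANC1 10 were positive and 8 negative of 25 tested, against 52.5% of all genes called. The adaptor gene SH2D2A was at 2.75 ± 0.39 with a mean count of 31.3, and the regulatory subunit gene PIK3R1 at -1.50 ± 0.13 in the authors' deposited table. Its catalytic partner PIK3CA was at -0.45 ± 0.07, the focal adhesion kinase gene PTK2 at 0.39 ± 0.05 and MAPKAPK2 at 0.52 ± 0.07 in the authors' deposited table.

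Genes known to respond to VEGF in endothelium had 4 positive and 0 negative calls of 10 tested in KPC, and 3 and 0 of 7 in PANC1. Positive calls over all genes were 5.77% in KPC and 26.0% in PANC1. Nr4a1 was at 1.40 ± 0.29, Klf4 at 0.86 ± 0.24, Egr3 at 1.66 ± 0.55 and Klf2 at 1.61 ± 0.55 in the authors' deposited table for KPC. After recentring 1 of the 4 was called, Nr4a1. After subtraction of the level trend 3 of them were called, and Klf4 was not, with an adjusted p of 0.087. In PANC1 the authors' deposited table gave NR4A1 at 2.51 ± 0.31, RCAN1, a calcineurin inhibitor, at 0.78 ± 0.10 and the Notch ligand gene DLL4 at 1.38 ± 0.54. These early-response and Krüppel-like factor genes also respond to many other stimuli.

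**Figure D4:**
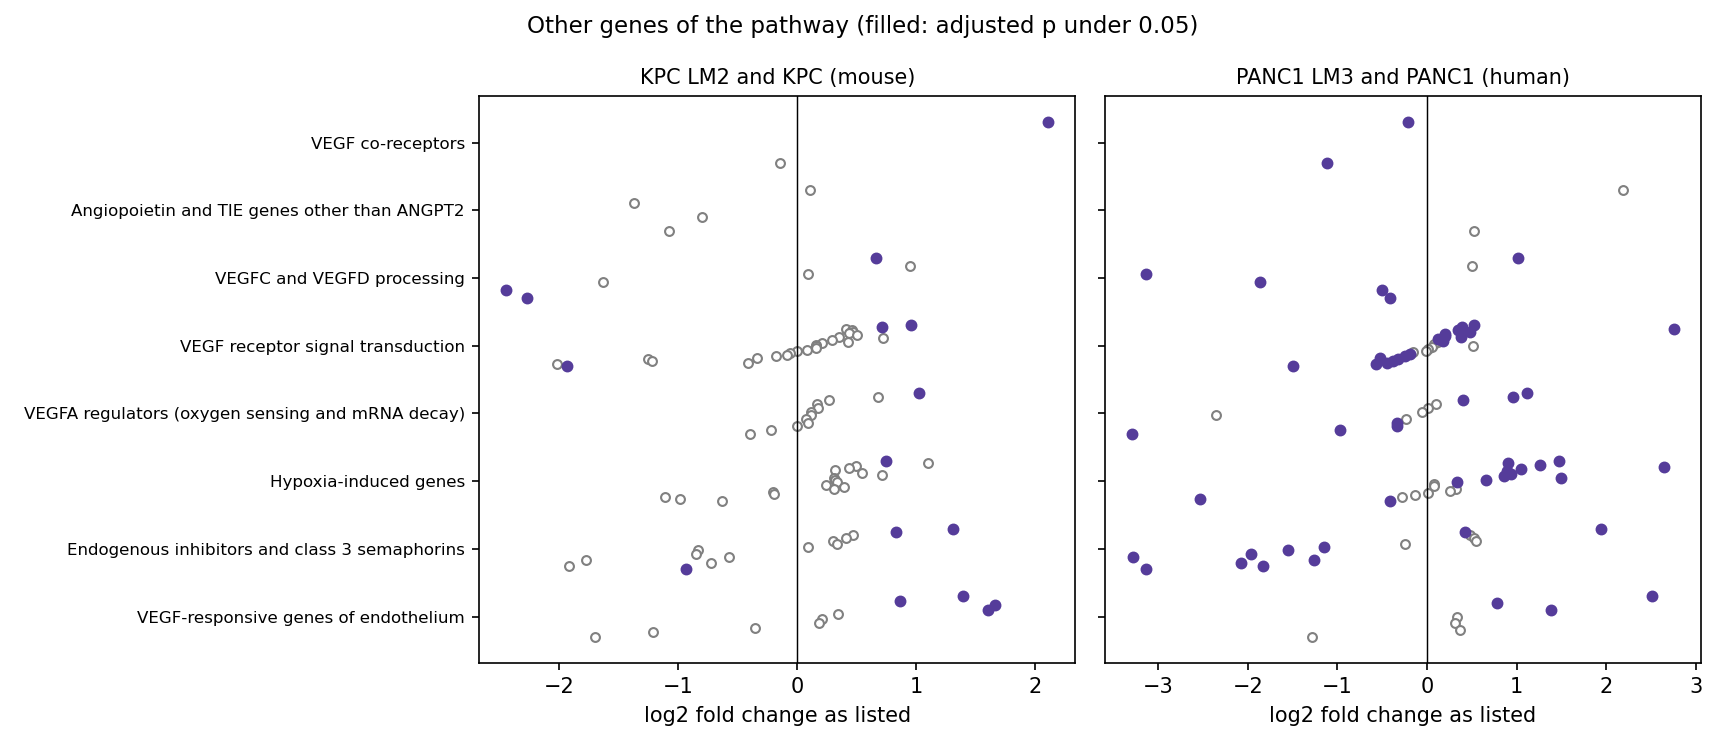
Log2 fold change as listed (x axis) of each tested gene of 8 lists of pathway genes (rows) in the KPC and PANC1 tables; filled points have an adjusted p under 0.05, and the vertical offset within a row only separates points. The semaphorin and inhibitor row of PANC1 has 8 filled points on the negative side and 2 on the positive side.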

How the data were processed

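Libraries were made with the TruSeq RNA kit per the labels' protocols. STAR 2.7.6a, featureCounts 2.0.0, MultiQC 1.9 and DESeq2 1.24 are named with the builds mm39 and hg19, per the submitters' processing notes; settings, annotation and model design are not given in the sources used here. The authors deposited 1 comparison table per model. The mean count is a signal that the authors averaged over the libraries of both groups after scaling, headed baseMean. The authors deposited log2 fold changes with SEs and no value per library. The authors' p-values are two-sided Wald p-values, deposited with a Benjamini-Hochberg adjustment. The deposited Wald score equalled the fold change over its SE within 9.17e-08. An adjusted p was listed for 20050 KPC and 17838 PANC1 genes. A second deposited score, the signed negative log10 p, was not used.

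The count test planned could not be run, because the tables hold no counts per library, so calls are the authors' (adjusted p under 0.05 over the whole table). Implied group means assume 3 libraries of equal weight in each group. Members and the 14 gene lists were chosen with earlier results of these data known. Named genes are all members and up to 6 called genes per list and table with the smallest adjusted p. The most abundant marker is also named for each marker list except the sinusoidal and lymphatic one. KRT7, SEMA3B and COL18A1 of PANC1 and the lowest and highest endothelial markers per kilobase are given outside this rule. Nrp1, Tek, ANGPT4, PECAM1, VWF, Pecam1 and Cdh5 were added after their values were seen. A gene of the signal transduction list that this rule names is not reported here. The subtraction of a running median over 501 genes, the recentring and the adjustment were tested on simulated data. Exon lengths came from GENCODE M21 and sequences from RefSeq, both of GRCm38. Tables were read with pandas 2.3.3 under Python 3.11.15, p-values used scipy 1.17.1 with numpy 2.4.6, and plots used matplotlib 3.10.9.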

Additional observations from a re-analysis of the deposited data

How the results depend on the processing

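The calls of Flt1 and Flt4 in KPC held under 6 alternatives, and the count of 2 members called under 5 of them. It was 3 after recentring, with Kdr, where 2149 of 20050 genes tested were called. The alternatives were a threshold of 0.01, a fold minimum (log2 of 1 in size), adjustment that included genes the authors left out, a restriction to mean counts from 64 up, recentring of fold changes on such genes, and subtraction of the level trend. Of 95 member values under these alternatives, 84 kept their sign and side of the threshold. Only recentring and trend subtraction could turn a sign, and the threshold of 0.01 and the fold minimum could only remove calls. The count of PANC1 members called, 1 as listed, was 0 at an adjusted p of 0.01 and 0 with the fold minimum, where 1 member had an unadjusted Wald p under 0.05, and 3 after trend subtraction. Of all 17838 genes tested in PANC1, 7993 were called at 0.01, 2759 with the fold minimum and 9252 after trend subtraction. Signs that turned belonged to uncalled members. Vegfb was at -0.095 after recentring and -0.094 after trend subtraction, and Angpt2 at -0.089 and -0.068. In PANC1, trend subtraction put VEGFC at -0.038 and ANGPT2 at -0.11. The cause was not tested. Over all genes, KPC calls fell to 889 at 0.01, 1303 with the fold minimum, 1345 at 64 or more and 1133 after trend subtraction, against 2079, and PANC1 calls to 2759 with the fold minimum, against 9361. Positive calls were 23.5% of KPC calls after recentring and 55.7% as listed. No paired analysis was possible because the tables hold no value per library, and leaving out replicates, edgeR and a refit with DESeq2 were not run for the same reason.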
